A study of Mus musculus with 8 samples.

Results

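The 10 genes described here are the NF-kB subunits Nfkb1 and Rela, the feedback inhibitors Nfkbia and Tnfaip3, the chemokines Ccl2, Cxcl1 and Cxcl12, the cytokine Il6, and the adhesion molecules Vcam1 and Icam1. They were taken by name from a table of 17091 features, and all 10 were in it. RNA was sequenced from immortalised skin fibroblasts (connective tissue cells adapted to continuous culture) in 4 groups with 2 libraries each. The KO groups are cells from C57BL/6 mice labelled mir210lox/lox, kept for 24 hours at 1% oxygen (hypoxia) or 21% oxygen (normoxia), and the WT groups are cells from wild-type C57BL/6 mice kept under the same 2 conditions. A lox site marks DNA that Cre recombinase can remove. The labels name no Cre, so KO is used as the name of a group. Nothing in them says that replicate libraries are separate cultures, so p values reflect library-to-library spread alone, and that spread may be technical. The design compares genotypes at each oxygen level because of miR-210, a microRNA that the low-oxygen factor HIF switches on. KO and WT cells come from different mice and were immortalised cells. An effect of miR-210 therefore cannot be told apart from other differences between the KO and WT cells.

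NF-kB is a family of transcription factors that rest in the cytoplasm bound to inhibitor proteins of the IkB family. Signals from cytokine or bacterial-product receptors lead to breakdown of the inhibitor, and the factors then enter the nucleus and switch on genes for chemokines, cytokines and adhesion molecules, together with genes for their own inhibitors. In fibroblasts these products call leukocytes into injured tissue. The HIF and NF-kB pathways are known to act on each other, since the oxygen-sensing hydroxylases that hold HIF down also act on parts of the NF-kB pathway.

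The letters of the NF-kB consensus element lie close to the start of 4 of the 7 members that have a promoter window in the RefSeq table used (build GRCm38.p6). Those 4 are shown, with Cxcl12 as a window without the element, because it has by far the highest level of the 10. Each is the 250 bases before the annotated start, read 5′ to 3′ on the gene's strand, with matches to the element in capitals.
Nfkbia, chr12:55492648-55492897, minus strand: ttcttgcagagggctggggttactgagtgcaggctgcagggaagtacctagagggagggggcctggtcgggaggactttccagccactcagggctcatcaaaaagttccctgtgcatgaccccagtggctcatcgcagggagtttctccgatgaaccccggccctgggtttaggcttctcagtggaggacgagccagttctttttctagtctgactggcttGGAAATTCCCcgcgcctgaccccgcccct
Tnfaip3, chr10:19015411-19015660, minus strand: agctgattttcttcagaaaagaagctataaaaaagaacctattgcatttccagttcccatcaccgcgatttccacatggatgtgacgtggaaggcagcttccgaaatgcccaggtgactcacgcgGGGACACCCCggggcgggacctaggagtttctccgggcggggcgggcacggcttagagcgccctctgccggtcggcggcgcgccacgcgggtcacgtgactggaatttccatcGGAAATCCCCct
Cxcl1, chr5:90890995-90891244, plus strand: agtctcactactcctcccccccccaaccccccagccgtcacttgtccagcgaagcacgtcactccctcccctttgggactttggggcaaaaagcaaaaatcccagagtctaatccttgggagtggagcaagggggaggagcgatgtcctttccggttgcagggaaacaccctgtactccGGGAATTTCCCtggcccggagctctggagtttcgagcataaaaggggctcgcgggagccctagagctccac
Il6, chr5:30012864-30013113, plus strand: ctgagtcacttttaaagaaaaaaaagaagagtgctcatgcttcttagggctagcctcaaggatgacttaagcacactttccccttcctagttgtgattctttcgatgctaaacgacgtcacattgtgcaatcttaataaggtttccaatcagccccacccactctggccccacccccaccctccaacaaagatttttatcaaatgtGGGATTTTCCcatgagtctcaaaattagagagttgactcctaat
Cxcl12, chr6:117168285-117168534, plus strand: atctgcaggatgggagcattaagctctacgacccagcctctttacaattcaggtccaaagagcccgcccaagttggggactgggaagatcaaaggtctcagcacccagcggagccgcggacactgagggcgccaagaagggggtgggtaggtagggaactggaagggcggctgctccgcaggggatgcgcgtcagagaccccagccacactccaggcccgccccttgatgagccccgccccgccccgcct
The element was searched on both strands as the strict string GGGRNNYYCC (R is A or G, Y is C or T, N is any base). Near matches were not counted, so a window without a match may hold one. The Icam1 window, for example, holds tggaaattcc, which is not a full match. Over all 32851 windows of the same length 7.3% held it. The 4 genes with a match are textbook targets of the factor, so the share among the 7 is no independent finding. A match is a string of letters, not a site shown to be bound. The match lay 20 to 29 bases before the start in Nfkbia, 35 to 44 bases before it in Il6, and 61 to 71 bases before it in Cxcl1, where matches on the 2 strands overlap. Tnfaip3 had matches at 116 to 125 and at 3 to 12 bases before the start of the window shown, and none in its second annotated window. The HIF core, spelled ACGTG or GCGTG, was searched on both strands. It was found in windows of 3 of the 7 members, beside 38.6% of all windows, so it was common in general. It occurred 5 times in the Tnfaip3 window shown, with 2 of those overlapping on opposite strands, and 2 times in its second window. Cxcl1 and Icam1 had 1 HIF core each. Rela, Nfkbia, Cxcl12 and Il6 had 0 in these windows.

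**Figure D1:**
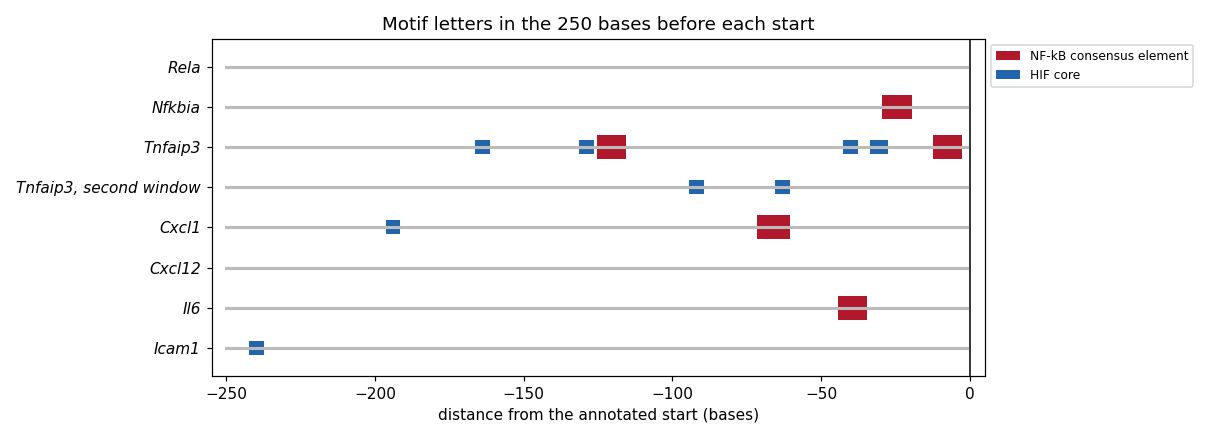
Positions of motif letters in the 250 bases before the annotated starts of the 7 members with a RefSeq window (Tnfaip3 has 2), with distance from the start in bases on the horizontal axis, tall red blocks for the NF-kB consensus element and short blue blocks for the HIF core. Nfkbia, Tnfaip3, Cxcl1 and Il6 carry the element, and the Tnfaip3 window carries 5 HIF cores.

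The sequence of the microRNA named in the design bears on 1 member. Its 3p strand is shown with its seed (bases 2 to 8, the part that pairs with targets) in capitals, and below it the 30 bases of the Nfkb1 3′ UTR around the match to that seed, also in capitals.
mmu-miR-210-3p: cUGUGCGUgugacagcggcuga
Nfkb1 3′ UTR: atgtagttgccACGCACAgacggtgtctag
The microRNA lies at chr7:141221407-141221428 on the minus strand (GRCm38.p6). Bases 187 to 193 of the 700-base Nfkb1 3′ UTR, on mouse chromosome 3 in the GENCODE M21 annotation of GRCm38, spell the reverse complement of the full 7-base seed. The 3′ UTRs of the other 9 members held neither these 7 bases nor the 6-base match without the first of them. Of 20952 genes with an annotated 3′ UTR, 3.0% held the 7-base and 8.1% the 6-base match. A match is a description and not a site shown to be used.

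Values are the authors' normalised read counts, rounded to whole numbers with a lowest value of 1. The spacing of low values put the depth at an estimated 6.26 to 11.76 M reads per library, with 1 read worth between 0.674 and 1.385 units. Mir210 was at 1 in all 8 libraries, so the targeted gene does not check the genotype labels. The oxygen labels were checked with Slc16a3, a lactate exporter, which was at 634 and 606 in KO hypoxia and at 25 and 9 in KO normoxia, and at 333 and 443 in WT hypoxia and at 15 and 13 in WT normoxia. All 10 fibroblast markers listed were measured and summed to 66921 to 91568. The largest in every library were Vim (22681 to 35333) and Fn1 (11176 to 35937). Col1a1 was at 4983 to 8590 and Col1a2 at 7861 to 11636, while Dcn was at 12 to 93 and Lum at 1 to 36. The macrophage and leukocyte list, 7 of 10 genes in the table, summed to 22 to 42, with Ptprc at 1 to 6, Cd68 at 6 to 18, Lyz2 at 1 to 20 and Csf1r at 1 to 19. Endothelial markers were low but not all at the lowest value, with Pecam1 at 1 to 2, Kdr at 6 to 25, Tek at 3 to 27 and Erg at 4 to 31. The 4 groups were fitted together with limma on log2(value + 1), for features with at least 10 in at least 2 libraries. This tested 12107 features and 8 of the 10 members, leaving out Il6 and Icam1. Fold changes are on that log2 scale, with a standard error (SE) and adjusted p values from limma, two-sided and corrected over all tested features by Benjamini and Hochberg. In bulk RNA, fewer cells that make a transcript and less of it per cell cannot be told apart.

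The members differed widely in level. Per kilobase of the longest annotated transcript, and averaged over the 8 libraries, Cxcl12 stood first at 911 ± 187 (SD) units, above Nfkbia at 291 ± 46.7, Nfkb1 at 196 ± 15.0 and Rela at 122 ± 14.7. Ccl2 (82.6 ± 36.4), Vcam1 (79.3 ± 23.1) and Tnfaip3 (66.4 ± 18.7) followed per kilobase, and the libraries of these 3 overlapped, so their order is not resolved. The lowest Nfkbia library (211) lay below the highest Nfkb1 library (218) per kilobase, and the highest Ccl2 library lay above the highest Rela library (139), so these neighbours overlapped too. Cxcl1 was at 25.1 ± 6.64 per kilobase. Its longest annotated transcript (1871 bases) covers nearly the whole gene, chr5:90891241-90893115. A shorter transcript would raise the level per kilobase, so its place below Tnfaip3 is not resolved. Il6 and Icam1 had the lowest mean levels, and the highest Il6 library (22.6) lay above the lowest Cxcl1 library (14.4) per kilobase.

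**Figure D2:**
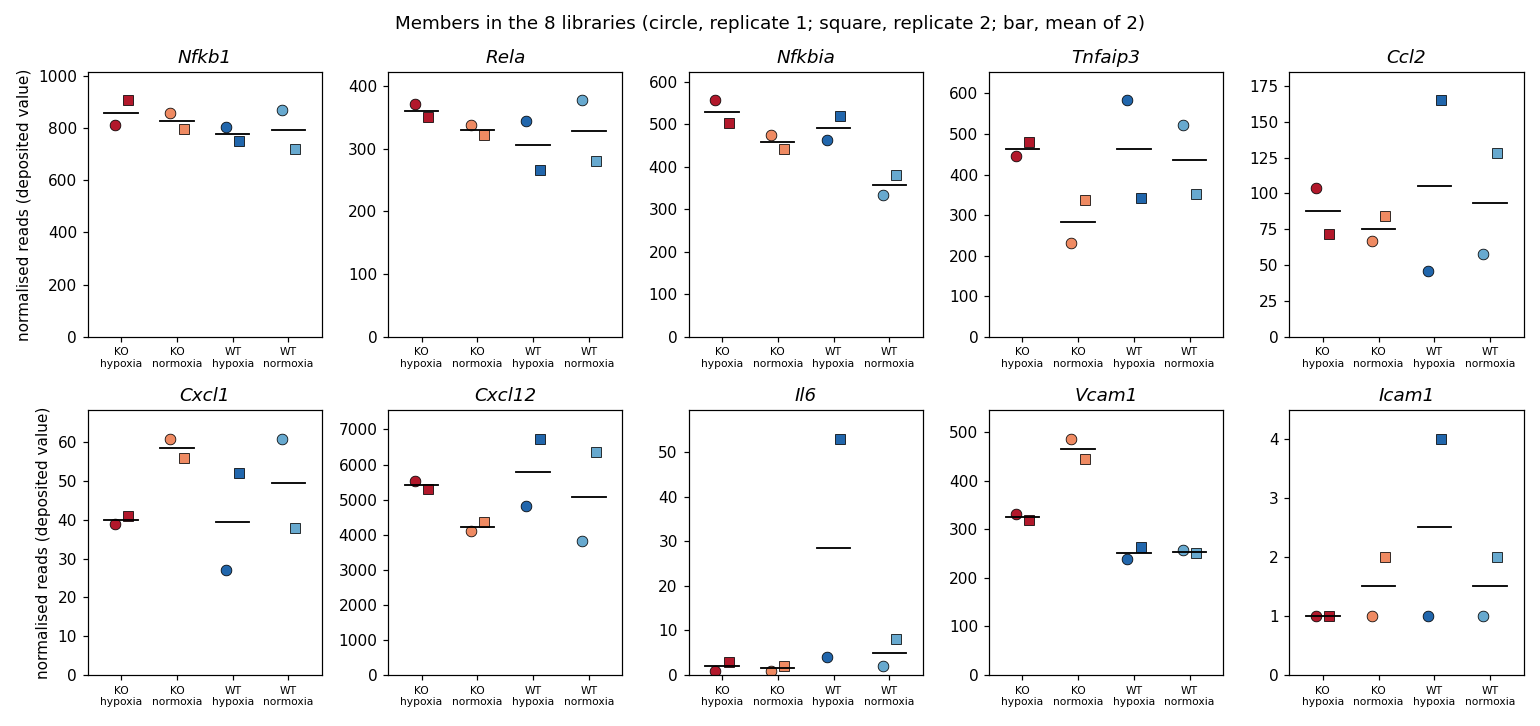
Deposited normalised read counts of the 10 members (vertical axis, from 0, with its own scale in each panel) in the 2 libraries of each group (circles, replicate 1; squares, replicate 2; black bars, mean of 2). Vcam1 lies between 319 and 487 in the KO libraries, all above the WT libraries at 238 to 263, and the 2 WT libraries of an oxygen level lie far apart for Ccl2, Cxcl12 and Tnfaip3.

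None of the 8 tested members passed the test in any of the 7 comparisons. In KO hypoxia against KO normoxia 0 of 8 were called, against 0.0578% of all features (7 of 12107), and in WT hypoxia against WT normoxia 0 of 8, against 0.107% (13). For KO against WT 0 of 8 were called in hypoxia and 0 of 8 in normoxia, where 0% of all features were called in each. When the WT response to hypoxia was subtracted from the KO response, 0 of 8 were called, with 0% of all features. Over both genotypes, hypoxia against normoxia called 0 of 8 members and 0.363% of features (44), while KO against WT, oxygen levels combined, called 0 of 8 and 0.0248% (3; 0.0165% higher and 0.00826% lower in KO). At an unadjusted p under 0.05 there were 2 of 8 members in KO hypoxia (Tnfaip3 and Vcam1), beside 387 features (3.2%), and 1 in KO against WT in normoxia (Vcam1), beside 363 (3%). Nfkbia was the 1 member at that level in hypoxia over both genotypes, beside 641 features (5.29%), and Vcam1 the 1 when KO was set against WT over both oxygen levels, beside 735 (6.07%). The counts were 0 in WT hypoxia (766 features, 6.33%), in KO against WT in hypoxia (910, 7.52%) and in the difference of the responses (380, 3.14%). Limma without a variance trend, the other form of the test run, also called 0 members in each comparison.

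**Figure D3:**
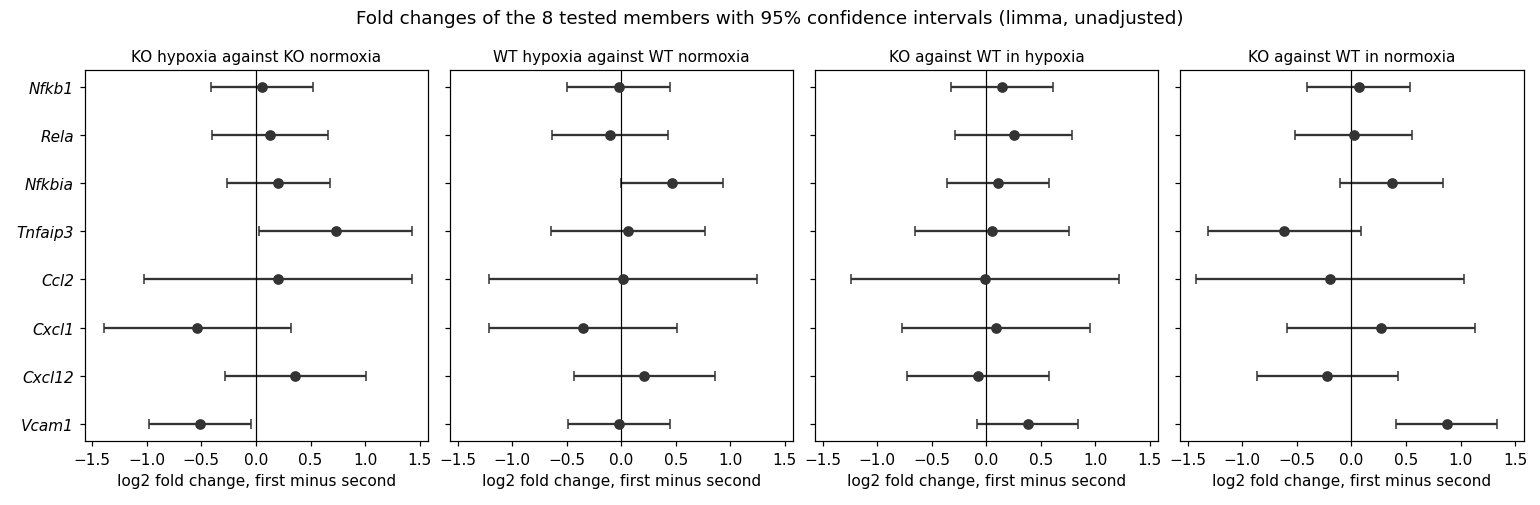
Log2 fold changes of the 8 tested members (points) with unadjusted 95% confidence intervals (bars) from limma in 4 comparisons, each as the first group minus the second. Most intervals cross 0, and the interval of Vcam1 in KO against WT in normoxia (0.41 to 1.34) lies furthest from it.

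The adhesion molecule Vcam1 showed the clearest separation of the genotypes. Vcam1 is a cell-surface protein that binds the integrin VLA-4 on leukocytes. It was at 332 and 319 in KO hypoxia, 487 and 445 in KO normoxia, 238 and 263 in WT hypoxia, and 257 and 251 in WT normoxia. All 4 KO libraries lay above all 4 WT libraries, as did those of 1.95% of tested features, and Vcam1 was the 1 member of 8 with such a split. KO normoxia averaged 466 ± 29.7 and WT normoxia 254 ± 4.24 (SD, n = 2 each), a log2 fold change of 0.87 ± 0.21 (SE, 95% confidence interval 0.41 to 1.34) that stood 15th among 12107 features by its p but did not pass (limma adjusted p = 1.00). In hypoxia the averages were 325.5 ± 9.19 for KO and 250.5 ± 17.7 for WT (log2 fold change 0.38 ± 0.21, limma adjusted p = 0.651).

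Over both oxygen levels the Vcam1 difference between KO and WT was 0.62 ± 0.15 (log2, SE, 95% confidence interval 0.30 to 0.95, limma adjusted p = 0.394). Within KO, both hypoxia libraries lay below both normoxia libraries (log2 fold change -0.52 ± 0.21, limma adjusted p = 0.916). Within WT the libraries of the 2 oxygen levels overlapped (-0.02 ± 0.21, limma adjusted p = 0.993). The 2 responses differed by -0.49 ± 0.30 (95% confidence interval -1.15 to 0.16, limma adjusted p = 0.857), so a difference between them was not shown. The endothelial list, 7 of 8 genes in the table, summed to 26 to 42 in the 4 KO libraries. In WT it summed to 73 in hypoxia replicate 2 and 80 in normoxia replicate 2, and to 20 and 25 in the WT libraries numbered 1, with Emcn at the lowest value throughout. The list for smooth muscle and pericytes, 5 of 5 in the table, summed to 33924 to 40685 in KO and 48482 to 64263 in WT, most of it Acta2. The keratinocyte and epithelium list, 8 of 8 in the table, summed to 75 to 94 in KO and 42 to 60 in WT, with Krt5 and Krt1 at the lowest value throughout. The part of these in the Vcam1 values was not tested.

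Icam1, the adhesion molecule that binds the leukocyte integrin LFA-1, was at or near the lowest value. It was at 1 and 1 in KO hypoxia, 1 and 2 in KO normoxia, 1 and 4 in WT hypoxia, and 1 and 2 in WT normoxia. The highest of these stands for an estimated 4 reads. At this depth no difference in Icam1 was detectable. Without the filter on low values it entered the fit, and its smallest limma adjusted p over the 7 comparisons was 0.724.

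The factor genes Nfkb1 and Rela had the smallest spread over the 8 libraries, relative to their mean, of the 8 tested members. Nfkb1, which encodes the precursor p105 and the DNA-binding subunit p50, was at 811 and 906 in KO hypoxia, 858 and 795 in KO normoxia, 805 and 749 in WT hypoxia, and 868 and 718 in WT normoxia. All groups overlapped except that both KO hypoxia libraries lay above both WT hypoxia libraries. For this gene, which carries the seed match shown above, KO against WT gave a log2 fold change of 0.14 ± 0.21 in hypoxia (95% confidence interval -0.33 to 0.61, limma adjusted p = 0.843) and 0.07 ± 0.21 in normoxia (-0.40 to 0.53, limma adjusted p = 1.00). The upper bound in hypoxia allows a log2 difference of up to 0.61.

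Rela, which encodes p65, the subunit with the activation domain, was at 371 and 350 in KO hypoxia, 338 and 321 in KO normoxia, 344 and 266 in WT hypoxia, and 377 and 280 in WT normoxia. The KO hypoxia libraries lay above those of KO normoxia and above those of WT hypoxia, and within the range of WT normoxia. The log2 fold change was 0.13 ± 0.24 in KO hypoxia against KO normoxia (limma adjusted p = 0.943) and 0.25 ± 0.24 in KO against WT in hypoxia (limma adjusted p = 0.760), where the alternatives gave 0.0668 to 0.44.

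Nfkbia encodes IkB-alpha, the inhibitor that holds the p50-p65 pair in the cytoplasm and is itself made in response to it. It was at 557 and 504 in KO hypoxia, 476 and 443 in KO normoxia, 464 and 520 in WT hypoxia, and 333 and 380 in WT normoxia. Both hypoxia libraries lay above both normoxia libraries within each genotype. The log2 fold change was 0.21 ± 0.21 in KO (limma adjusted p = 0.917) and 0.46 ± 0.21 in WT (95% confidence interval -0.00 to 0.93, limma adjusted p = 0.785). Over both genotypes it was 0.34 ± 0.15 (limma adjusted p = 0.922), and the responses differed by -0.26 ± 0.30 (limma adjusted p = 0.871). Over the alternatives run, the WT value lay between 0.28 and 0.56 and the difference between -0.35 and -0.0249. KO normoxia averaged 459.5 ± 23.3 and WT normoxia 356.5 ± 33.2, without overlap (log2 fold change 0.37 ± 0.21, limma adjusted p = 1.00).

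Tnfaip3 encodes A20, a ubiquitin-editing enzyme that damps signalling upstream of the inhibitor. It was at 446 and 481 in KO hypoxia, 231 and 337 in KO normoxia, 583 and 341 in WT hypoxia, and 521 and 351 in WT normoxia. The KO normoxia libraries were the lowest of all, below those of KO hypoxia and of WT normoxia. Within WT the replicates stood further apart than the oxygen levels. The log2 fold change was 0.73 ± 0.32 in KO hypoxia against KO normoxia (95% confidence interval 0.02 to 1.43, limma adjusted p = 0.916) and -0.61 ± 0.32 in KO against WT in normoxia (limma adjusted p = 1.00). In WT hypoxia against WT normoxia it was 0.06 ± 0.32 (limma adjusted p = 0.985), and it turned to -0.33 without WT hypoxia replicate 1 and to -0.22 without WT normoxia replicate 2. The responses differed by 0.67 ± 0.45 (95% confidence interval -0.33 to 1.67, limma adjusted p = 0.857). These values moved when single libraries were left out. The KO response was 0.46 without KO normoxia replicate 1, and KO against WT in normoxia was -0.34 without that library and -0.33 without WT normoxia replicate 1. The difference of the responses lay between 0.28 without WT hypoxia replicate 2 and 1.05 without WT hypoxia replicate 1, and was 0.0115 without both WT hypoxia replicate 2 and KO normoxia replicate 1.

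Cxcl12 was the most abundant of the chemokines. It encodes SDF-1, which holds and attracts cells that carry the receptor Cxcr4 and is made by resting stromal cells. It was at 5519 and 5308 in KO hypoxia, 4093 and 4352 in KO normoxia, 4831 and 6742 in WT hypoxia, and 3824 and 6350 in WT normoxia. The KO groups did not overlap, and the WT groups did, with WT replicate 2 above WT replicate 1 at both oxygen levels. The log2 fold change of hypoxia against normoxia was 0.36 ± 0.29 in KO (limma adjusted p = 0.916) and 0.21 ± 0.29 in WT (limma adjusted p = 0.923). The WT value turned to -0.15 without WT normoxia replicate 1 and to -0.03 without WT hypoxia replicate 2. Each WT hypoxia library lay above the WT normoxia library of the same number. The labels do not say that a shared number marks a pair. Cxcr4 itself was at 24 and 15 in KO hypoxia, 5 and 9 in KO normoxia, 8 and 15 in WT hypoxia, and 13 and 11 in WT normoxia (log2 fold change in KO 1.37 ± 0.54, limma adjusted p = 0.916).

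Ccl2 encodes MCP-1, which attracts monocytes. It was at 104 and 72 in KO hypoxia, 67 and 84 in KO normoxia, 46 and 165 in WT hypoxia, and 58 and 128 in WT normoxia. The spread within WT covered all KO libraries. Both WT libraries numbered 2 were above every KO library, and both numbered 1 were below every KO library. The log2 fold change was 0.20 ± 0.55 in KO hypoxia against KO normoxia (limma adjusted p = 0.964) and 0.02 ± 0.55 in WT (95% confidence interval -1.21 to 1.25, limma adjusted p = 0.998). It turned to -0.89 in WT without WT hypoxia replicate 2 and to -0.55 without WT normoxia replicate 1. In KO it turned to -0.06 without KO hypoxia replicate 1.

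Cxcl1, a neutrophil-attracting chemokine (KC in the mouse), was at 39 and 41 in KO hypoxia, 61 and 56 in KO normoxia, 27 and 52 in WT hypoxia, and 61 and 38 in WT normoxia. Both KO hypoxia libraries lay below both KO normoxia libraries, and the WT groups overlapped. The log2 fold change was -0.54 ± 0.39 in KO (limma adjusted p = 0.916) and -0.35 ± 0.39 in WT (limma adjusted p = 0.901), and the WT value turned to 0.11 without WT hypoxia replicate 1. Its libraries rest on an estimated 25 to 83 reads each.

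Il6, a cytokine that drives the acute-phase response, was high in 1 library. It was at 1 and 3 in KO hypoxia, 1 and 2 in KO normoxia, 4 and 53 in WT hypoxia, and 2 and 8 in WT normoxia. The value in WT hypoxia replicate 2 stands for an estimated 50 reads, and that in WT normoxia replicate 2 for 7. The KO libraries hold an estimated 4 reads at most. Without the filter Il6 had its smallest limma adjusted p, 0.695, in KO against WT in hypoxia. Other genes of the pathway and marker lists, picked here after their values were seen, were also highest in WT hypoxia replicate 2. Ccl7, a monocyte chemokine whose gene lies beside Ccl2 in the genome, was at 239 there and at 44 to 114 in the other 7 libraries. Cebpd, a transcription factor of the acute-phase response, was at 900 there and at 129 to 375 elsewhere. The adipocyte marker Fabp4, the 1 gene of 4 on that list in the table, was at 94 there, 46 in WT normoxia replicate 2 and 4 to 13 in the other 6. The part of other cell types in these values was not tested. Other genes on the lists were lowest in WT hypoxia replicate 2, among them the adaptor gene Traf3 (211) and the kinase gene Ikbkb (327).

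Groups of libraries that did not overlap were common in this table and are read against that background. In KO hypoxia against KO normoxia 6 of the 8 tested members did not overlap (Cxcl12, Nfkbia, Rela and Tnfaip3 higher, Vcam1 and Cxcl1 lower), against 32.2% of all tested features. In WT hypoxia against WT normoxia 1 of 8 did not (Nfkbia, higher), against 38.8% (18.9% higher and 19.9% lower). For KO against WT 3 of 8 did not overlap in hypoxia (Nfkb1, Rela and Vcam1, higher), against 50.8%, and 3 of 8 in normoxia (Nfkbia and Vcam1 higher, Tnfaip3 lower), against 21%. With 4 libraries a side, 0 of 8 did not overlap between oxygen levels, against 3.71% (2.06% higher and 1.65% lower in hypoxia). Between genotypes 1 of 8, Vcam1, did not overlap, against 3.65% (1.95% higher and 1.7% lower in KO). The hypoxia comparisons within a genotype share libraries with the genotype comparisons, so these counts are not independent.

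Across the 8 libraries the members fell into no single pattern. Of 28 pairs of tested members, Pearson's r of log2 values ran from -0.75 (Rela with Ccl2, Spearman's rho -0.62) to 0.80 (Nfkb1 with Rela, rho 0.81), and Ccl2 with Cxcl12 had 0.79 (rho 0.81). These are descriptions over 8 libraries that share the split between the WT libraries numbered 1 and 2. Closest features were sought for the member of each role with the highest value before division by length. Among 12106 other tested features, the ones closest to Nfkb1 by Pearson's r were Tctn1 (0.94), Ttll5 (0.93) and Wdr90 (0.93). Those closest to Cxcl12 were Fam63b (0.99), Zfp90 (0.98) and Sh3bgr (0.97), and those closest to Vcam1 were 5730419I09Rik (0.96), Wars2 (0.94) and Tro (0.93). They are the highest of 12106 correlations over 8 libraries, so high r is partly a product of the search. Tctn1 (13 to 30), Sh3bgr (10 to 38) and Tro (5 to 16) had low values.

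The lists of the wider pathway include the 10 members, so they are no separate check on them. Of 117 genes on 7 lists of NF-kB pathway genes, 106 were in the table and 85 were tested. Of these, 0 rose and 0 fell in each of the 7 comparisons, against 0% to 0.363% of all features called. Where 0% of all features were called, the outcome for the lists was fixed. The median log2 fold change over these 85 was -0.01 in KO hypoxia against KO normoxia and -0.10 in WT hypoxia against WT normoxia, beside 0.01 and -0.02 over all tested features. For KO against WT it was 0.05 in hypoxia and -0.01 in normoxia, beside -0.01 and -0.02. At an unadjusted p under 0.05 there were 4 of the 85 in KO hypoxia (3.2% of all features), the members Tnfaip3 and Vcam1 among them. There were 4 in WT hypoxia (6.33% of all features). For KO against WT there were 7 of 85 in hypoxia (7.52% of all features) and 6 in normoxia (3% of all features). There were 2 of 85 in the difference of responses (3.14% of all features), 3 in hypoxia over both genotypes (5.29%) and 8 between genotypes with oxygen levels combined (6.07%).

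Traf1, an adaptor of TNF receptors whose gene is a target of NF-kB, had the smallest p of the pathway genes outside the 10 in KO against WT. It was at 97 and 89 in KO hypoxia, 98 and 98 in KO normoxia, 40 and 35 in WT hypoxia, and 66 and 29 in WT normoxia, with all KO libraries above all WT libraries. Over both oxygen levels its log2 fold change was 1.22 ± 0.26 (limma adjusted p = 0.326). Cx3cl1, a membrane-bound chemokine, was at 511 and 417 in KO hypoxia, 608 and 482 in KO normoxia, 300 and 297 in WT hypoxia, and 395 and 425 in WT normoxia (0.51 ± 0.16 over both oxygen levels, limma adjusted p = 0.597). Ier3, a stress-response gene, was at 800 and 778 in KO hypoxia, 579 and 601 in KO normoxia, 996 and 1146 in WT hypoxia, and 810 and 859 in WT normoxia. Its hypoxia libraries lay above its normoxia libraries in both genotypes (0.39 ± 0.14 over both, limma adjusted p = 0.859), and the KO libraries lay below the WT libraries (-0.47 ± 0.14, limma adjusted p = 0.597).

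Other genes with the smallest p on the lists follow, and none passed the test. In WT hypoxia against WT normoxia the kinase gene Ikbkb was at 391 and 327 in hypoxia and 516 and 549 in normoxia (log2 fold change -0.57 ± 0.21, limma adjusted p = 0.767), and the adaptor Traf3 at 336 and 211 in hypoxia and 517 and 429 in normoxia (-0.82 ± 0.32, limma adjusted p = 0.767). The cytokine Il11 was at 26 and 16 in KO hypoxia, 13 and 11 in KO normoxia, 24 and 14 in WT hypoxia, and 7 and 8 in WT normoxia (0.96 ± 0.35 over both genotypes, limma adjusted p = 0.854). Il33 in KO hypoxia (1 and 4, against 12 and 7 in KO normoxia) and Cxcl5 in KO against WT in hypoxia (39 and 25, against 14 and 12 in WT hypoxia) were low throughout, with limma adjusted p of 0.916 and 0.641. The complement gene C3 was at 282 and 644 in KO normoxia and at 612 and 1457 in WT normoxia (-1.15 ± 0.49, limma adjusted p = 1.00), with overlap. The difference of the responses, KO minus WT, was 0.98 ± 0.43 for the adaptor Tab2 and 0.85 ± 0.38 for the macrophage growth factor Csf1. It was 0.96 ± 0.45 for Traf3, and each had a limma adjusted p of 0.857. In KO, hypoxia against normoxia was 854 and 879 against 425 and 869 for Tab2. It was 3058 and 3179 against 1811 and 2980 for Csf1, and 406 and 549 against 334 and 546 for Traf3. In WT it was 650 and 566 against 798 and 880 for Tab2, and 2265 and 2333 against 2761 and 3433 for Csf1. KO normoxia replicate 1 was the lowest KO library for each.

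**Figure D4:**
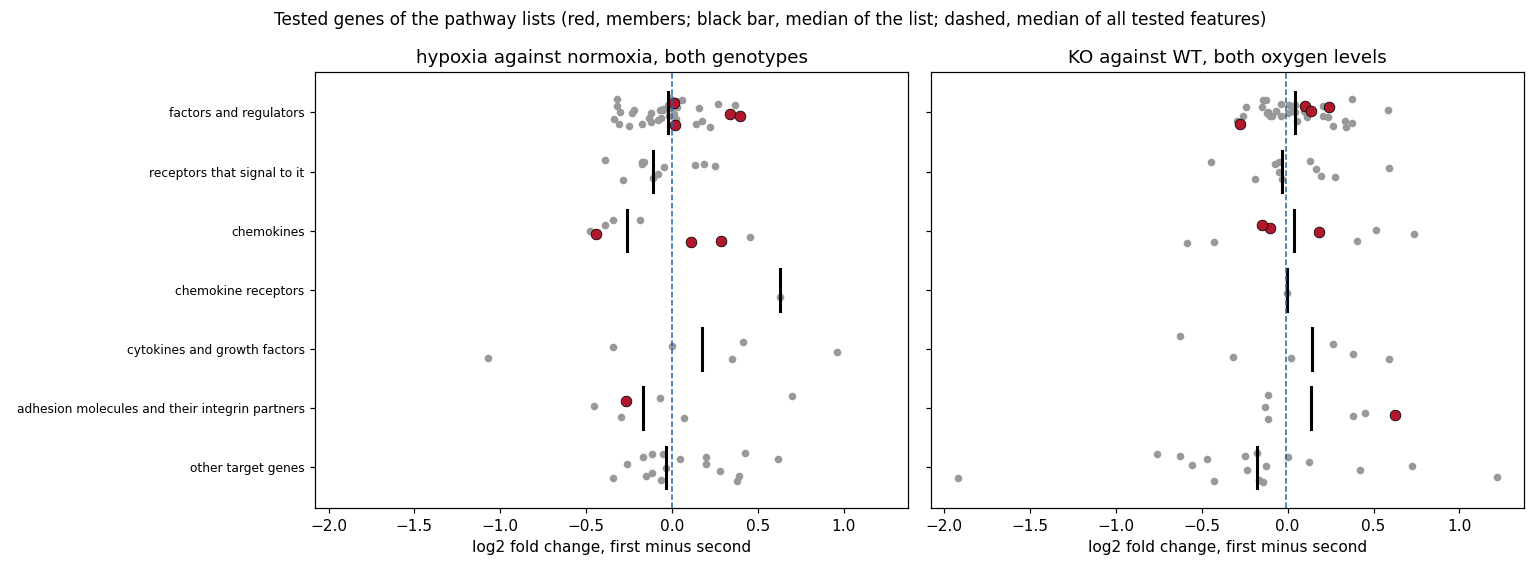
Log2 fold changes (horizontal axis) of the tested genes on 7 NF-kB pathway lists (rows), for hypoxia against normoxia over both genotypes (left) and for KO against WT at both oxygen levels (right), with the members in red, list medians as black bars and the median of all tested features as a dashed line. The points lie on both sides of 0 in both panels, and 0 of the 85 genes passed the test in either.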

How the data were processed

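RNA was measured in 8 libraries, 2 in each of 4 groups taken from the labels. Per the labels' protocols, total RNA was extracted with a miRNeasy kit and library preparation used an NEBNext kit for small RNA on the SOLiD platform. The deposited values are scores: per the file's name, read counts that the authors normalised, and from the values whole numbers of at least 1. The sources used here give no aligner, build, strand use or normalization method, so genes that overlap or have near-identical copies may share reads. Unused sample columns numbered 0.

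The 10 members and the gene lists were chosen with earlier results of these data known. The pseudocount of 1 in log2(value + 1) understates fold changes of low genes. Features with at least 10 in at least 2 libraries (12107) were fitted in limma 3.58.1 (R 4.3.3) with a variance trend, 4 groups and no replicate term, with 10.2 degrees of freedom. The threshold was an adjusted p of 0.05 within each of 7 comparisons. An exact test of 2 against 2 libraries cannot go below 0.333. Rounding hides the reads, so no count model was run. Depth came from the spacing of low values (tested on 4 simulated libraries). On simulated data for WT hypoxia (12159 features), 50 features were altered at each of 4 sizes. The test found 2 of those at 1.5-fold, 9 at 2-fold, 48 at 4-fold and all 50 at 8-fold, and it called 5 unaltered features. The simulated libraries were independent and had the same set dispersion for every feature, so these counts do not give the power in the real libraries. Genes named outside the 10 were, by rule, those with the 3 smallest p on the lists in each comparison and the 3 features closest to the member of each role with the highest mean value, not divided by length. Slc16a3 checked the oxygen labels, marker genes came from the cell type lists, and Ccl7, Cebpd and Fabp4 were named after their values were seen. Transcript lengths and positions came from GENCODE M21, promoter and microRNA sequences from RefSeq. The 17 alternatives covered pseudocount, filter, scaling, variance trend, transcript length, replicate term and left-out libraries.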

Additional observations from a re-analysis of the deposited data

How the results depend on the processing

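None of the 8 tested members passed the threshold under any of the 17 alternatives. Of 952 member values under alternatives 882 kept their direction and 70 turned it, 51 of them when 1 library was left out. Vcam1 kept its direction in KO against WT in all settings run (0.81 to 0.94 in normoxia and 0.31 to 0.45 in hypoxia), with a smallest limma adjusted p of 0.0917, and so did Nfkbia in hypoxia over both genotypes (0.27 to 0.38).

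The number of features called changed with the setting. It was 7 in KO hypoxia and became 11 with the replicate block, 12 with the length trend removed, and 4 to 758 with 1 library left out, the highest without KO normoxia replicate 2 (0 members among them). It was 13 in WT hypoxia and became 6 without a filter, 6 without both WT hypoxia 2 and KO normoxia 1, and 1 to 20 with 1 library left out, the lowest without WT hypoxia replicate 2. Hypoxia over both genotypes had 44, which became 24 without a filter, 21 without a variance trend, 25 without those 2 libraries and 12 to 50 with 1 left out, the lowest without WT hypoxia replicate 2. KO against WT over both oxygen levels had 3, which became 0 without a filter, without a trend or without those 2 libraries, 6 with the length trend removed, and 0 with any 1 library left out. With 1 library left out of a group, the lone library is assumed to vary like the other groups.

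Without the pair of libraries WT hypoxia 2 and KO normoxia 1, the direction turned for Nfkb1 (0.0281), Rela (0.0821), Ccl2 (-0.89) and Cxcl12 (-0.0286) in WT hypoxia, Tnfaip3 (-0.33), Ccl2 (0.90) and Cxcl12 (0.16) in KO against WT in hypoxia, Rela (-0.0174) in KO against WT in normoxia, Cxcl1 (0.34) in the difference of responses, Ccl2 (-0.42) in hypoxia over both genotypes, Ccl2 (0.43) in KO against WT over both oxygen levels. With the trend with transcript length removed, the direction turned for Nfkb1 (0.0497), Ccl2 (-0.26) and Vcam1 (0.048) in WT hypoxia, Tnfaip3 (-0.11) and Ccl2 (0.24) in KO against WT in hypoxia, Nfkb1 (-0.0181) and Cxcl12 (-0.0523) in the difference of responses. The length trend ran from -0.166 (log2 per doubling of length) in KO normoxia replicate 1 to 0.162 in KO normoxia replicate 2. With quantile normalization, the direction turned for Ccl2 (-0.0157) in WT hypoxia. The cause of these turns was not tested.

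With 1 library left out, these members turned direction. In KO hypoxia the range was -0.0262 to 0.13 for Nfkb1 and -0.0586 to 0.47 for Ccl2. In WT hypoxia the range was -0.16 to 0.11 for Nfkb1, -0.32 to 0.11 for Rela, -0.33 to 0.45 for Tnfaip3, -0.89 to 0.93 for Ccl2, -0.81 to 0.11 for Cxcl1, -0.15 to 0.58 for Cxcl12 and -0.0934 to 0.0501 for Vcam1. In KO against WT in hypoxia the range was -0.33 to 0.44 for Tnfaip3, -0.92 to 0.90 for Ccl2, -0.37 to 0.55 for Cxcl1 and -0.32 to 0.16 for Cxcl12. In KO against WT in normoxia the range was -0.0716 to 0.20 for Nfkb1, -0.19 to 0.23 for Rela, -0.76 to 0.37 for Ccl2, -0.0607 to 0.61 for Cxcl1 and -0.59 to 0.14 for Cxcl12. In the difference of responses the range was -0.0593 to 0.21 for Nfkb1, -0.72 to 1.10 for Ccl2, -0.64 to 0.28 for Cxcl1 and -0.22 to 0.51 for Cxcl12. In hypoxia over both genotypes the range was -0.0535 to 0.0832 for Nfkb1, -0.0937 to 0.12 for Rela and -0.34 to 0.57 for Ccl2. In KO against WT over both oxygen levels the range was -0.56 to 0.35 for Ccl2, -0.0485 to 0.41 for Cxcl1 and -0.33 to 0.0329 for Cxcl12.

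The labels give the groups the same replicate numbers without saying that a number marks a shared culture or day. Number 1 minus number 2 correlated across features at 0.57 between WT hypoxia and WT normoxia and at 0.23 between the KO groups. Between genotypes the correlation ran from -0.11 to 0.11. The main fit took no pairs, and these correlations cannot tell whether a number marks a pair within a genotype. The replicate block gives both genotypes the same replicate effect, and pairs within each genotype were not fitted. With the replicate block the count was 11 in KO hypoxia, 19 in WT hypoxia, 56 in hypoxia over both genotypes and 4 in KO against WT over both oxygen levels, with 0 members among them. Depth limits Il6, Icam1 and Cxcl1 most.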
